A study of Mus musculus with 4 samples.

Results

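The genes described here are 9 enzymes of the methionine cycle and of the one-carbon reactions joined to it: Mat1a, Mat2a, Gnmt, Ahcy, Bhmt, Bhmt2, Cbs, Cth and Shmt1. They were chosen by symbol for their place in the pathway, out of 23920 genes in the deposited table, with earlier results of these data known. All 9 were found in that table and were high enough to be tested. The samples were livers of 12-week-old male C57BL/6 mice, of SREBP1c WT or SREBP1c KO genotype. SREBP1c, a product of Srebf1, is the transcription factor through which insulin raises fatty acid synthesis in hepatocytes. Mice of both genotypes went without food for 24 h and then had 12 h of refeeding, so no fasted or fed-throughout liver is part of the comparison. RNA was sequenced in 2 WT and 2 KO libraries. How the knockout allele was made is not given in the sources used here, nor whether each library came from a separate mouse, and the p-values below therefore reflect the variation among these libraries alone, which may be technical.

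The methionine cycle makes S-adenosylmethionine, the methyl donor of most cellular methylation reactions, from methionine and ATP. Methyl transfer leaves S-adenosylhomocysteine, which is split to adenosine and homocysteine. Homocysteine is either methylated back to methionine, with betaine or methylfolate as the donor, or passed through cystathionine to cysteine. The liver carries most of this traffic, and its demand for methyl groups includes the synthesis of phosphatidylcholine and creatine.

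The upstream sequences of 3 members are shown because the targeted gene encodes a DNA-binding factor: Gnmt and Cbs hold letters that SREBP proteins are known to bind, and Shmt1 is the member on the chromosome of Srebf1. RefSeq promoters (GRCm38.p6, the assembly called mm10) were matched for 7 of the 9 members. The 250 bases before the start were searched on both strands for the sterol regulatory element letters TCACNCCAC, the E-box CACGTG, the CCAAT box bound by NF-Y and the Sp1 box GGGCGG. Both NF-Y and Sp1 are known partners of SREBPs. All 3 genes lie on the minus strand, and the sequences run 5′ to 3′ toward the gene, with the matched letters, in either orientation, in capitals. Bases inside an annotated exon or the RefSeq gene span were left off the 3′ end of Gnmt (46 bases) and Cbs (33 bases). For these genes the start used for the window thus lies inside the RefSeq gene span, and positions are counted from that start. The bases left off Cbs held a further Sp1 box (33 to 28 bases before the start) and a further CCAAT box (15 to 11), which are not shown.
Gnmt, chr17:46729212-46729415: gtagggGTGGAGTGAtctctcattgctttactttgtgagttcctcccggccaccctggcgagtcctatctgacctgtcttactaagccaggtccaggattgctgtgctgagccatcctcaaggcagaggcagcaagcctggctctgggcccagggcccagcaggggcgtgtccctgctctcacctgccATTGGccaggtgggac
Cbs, chr17:31637239-31637455: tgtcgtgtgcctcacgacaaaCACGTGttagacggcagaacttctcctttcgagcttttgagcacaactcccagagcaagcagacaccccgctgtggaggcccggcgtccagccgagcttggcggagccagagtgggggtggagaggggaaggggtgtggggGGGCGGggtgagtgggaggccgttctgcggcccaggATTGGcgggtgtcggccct
Shmt1, chr11:60811266-60811515: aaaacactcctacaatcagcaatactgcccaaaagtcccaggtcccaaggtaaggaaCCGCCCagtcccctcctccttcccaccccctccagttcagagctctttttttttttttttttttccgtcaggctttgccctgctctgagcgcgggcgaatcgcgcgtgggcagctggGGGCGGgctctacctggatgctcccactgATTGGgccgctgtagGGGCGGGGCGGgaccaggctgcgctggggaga

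The sterol regulatory element letters occurred in 1 of the 7 promoters, that of Gnmt, against 1.05% of 32851 promoter windows of the same length. They lay on the opposite strand, 244 to 236 bases before the start used for the window. The E-box occurred in 1, that of Cbs, 229 to 224 bases before the start used for its window, against 6.02% of all windows. The CCAAT box occurred in 6 of the 7 (33.8% of all windows) and the Sp1 box in 5 (32.7%). Overlapping matches were counted, as in the last capitals of Shmt1. These matches are letters in a window, not binding sites.

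Levels are FPKM, fragments per kilobase of transcript and per M (mega) mapped fragments, which allows genes of different length to be set side by side. Over the 4 libraries the whole table summed to between 536889 and 550757 FPKM, and low values implied between 20.8 and 22.9 M fragments per library. These depths are rough, as a whole fragment count (within 0.1) fitted only 46.6% to 48.9% of low values. Srebf1, the targeted gene, stood at 63.7 and 58.2 FPKM in the WT libraries and at 8.63 and 6.97 FPKM in the KO libraries, so the KO mean was 7.81-fold lower. Of the 10 hepatocyte genes examined 9 were measured, with Ttr at 2488 FPKM or more in each library, while Alb, the albumin gene, was listed at 0 in all 4 libraries, so a value of 0 in this table is not read as absence. KO replicate 2 stood apart. The median of 11 acute phase genes lay 2.25 log2 units above the WT mean in KO replicate 2 and 0.52 below it (−0.52) in KO replicate 1. The members' differences are therefore given with all libraries and as a range with each left out, here or under the processing alternatives.

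No member changed between genotypes past the threshold used, an adjusted p under 0.05 in limma's moderated test on log2(FPKM + 1) over all 9820 genes with a mean of at least 1 FPKM. That threshold was passed by 7 genes, or 0.0713% of those tested, with 6 lower and 1 higher in KO. The count was 1 (0.0102%) without WT replicate 1, 4 (0.0406%) without WT replicate 2, 357 (3.63%) without KO replicate 1 and 138 (1.41%) without KO replicate 2, with no member among them. With a library left out its group is a single library, which is assumed to vary like the other group, the only source of the spread. The members' limma adjusted p ran from 0.665 to 0.95, and none had an unadjusted p under 0.05, which 7.75% of all genes had. Of the 9 differences 6 were negative and 3 positive, against 4459 negative and 5361 positive over all 9820 genes tested. The median log2 difference, KO minus WT, was −0.10 over the members and 0.02 over all genes tested, and the median size without sign was 0.15 against 0.11. In 3 of the 9 the KO and WT values did not overlap, 2 lower and 1 higher in KO, against 38.7% of all genes tested in either direction. Over the 9 genes the 95% intervals of the log2 difference ran from −0.79 at the lowest bound to 0.61 at the highest.

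**Figure D1:**
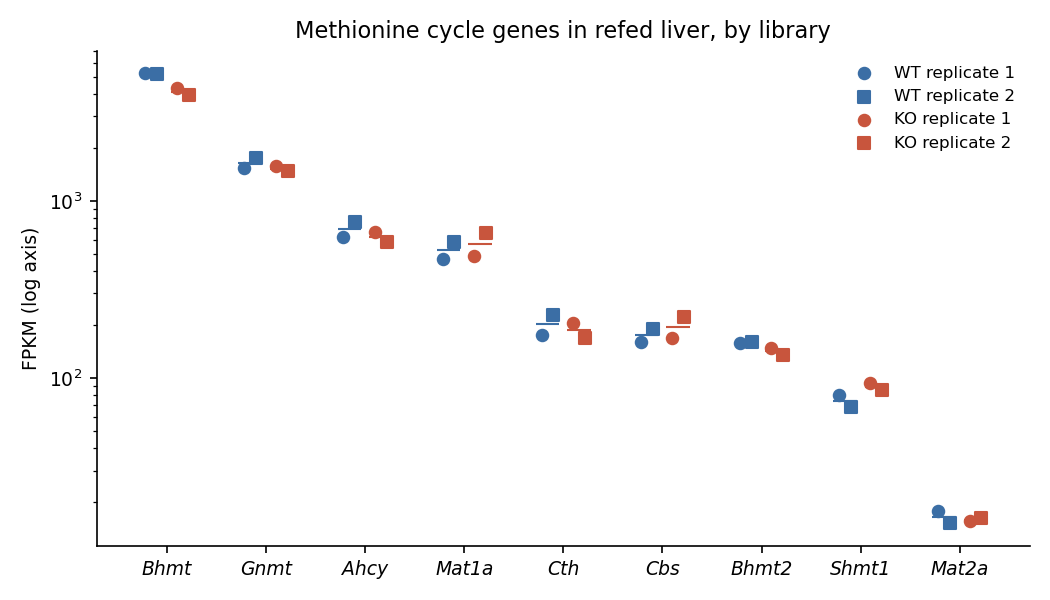
FPKM (log axis) of the 9 genes in each library, ordered by mean level. Circles are replicate 1, squares replicate 2, blue WT and orange-red KO, and bars are group means of 2 libraries. Levels run from 15.1 FPKM for Mat2a to 5253 FPKM for Bhmt, and the groups separate for Bhmt, Bhmt2 and Shmt1.

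S-adenosylmethionine is made in hepatocytes chiefly by the product of Mat1a, the adult liver form of methionine adenosyltransferase. Mat1a (chromosome 14, 41105012 to 41124428) stood at 468 and 583 FPKM in the WT libraries and at 485 and 662 FPKM in the KO libraries. The replicate 2 library was the higher one in both groups, and the groups overlapped. The log2 difference was 0.12 (SE 0.20, limma adjusted p = 0.917), smaller than the gap between replicates in either group, and leaving out WT replicate 1 or KO replicate 2 gave −0.04 or −0.11. Mat2a, which encodes the form found in most other tissues and in dividing or fetal liver cells, stood at 17.6 and 15.1 FPKM in the WT libraries and at 15.5 and 16.2 FPKM in the KO libraries. Its log2 difference was −0.04 (SE 0.12, limma adjusted p = 0.95) and 0.06 without WT replicate 1. RefSeq places Ggcx and the non-coding Particl over part of the Mat2a locus (chromosome 6, 72432796 to 72439556), and without a stated use of strand their reads cannot be told apart there. Within each library the level of Mat1a was 26.5 and 38.5 times that of Mat2a in WT and 31.2 and 40.9 times in KO. These ratios overlapped, and the predominance of the adult liver form was seen in each of the 4 libraries.

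Use of S-adenosylmethionine was represented by Gnmt, glycine N-methyltransferase, which methylates glycine to sarcosine and is known as a buffer of the methyl donor in liver. Gnmt (chromosome 17, 46725664 to 46729211) stood at 1538 and 1740 FPKM in the WT libraries and at 1568 and 1473 FPKM in the KO libraries. It ranked as number 42 of all genes by mean level, and its groups overlapped, at a log2 difference of −0.11 (SE 0.16, limma adjusted p = 0.90), which ran from −0.195 to −0.02 with a library left out. Ahcy, which hydrolyses S-adenosylhomocysteine, the product inhibitor of most methyltransferases, stood at 628 and 755 FPKM in the WT libraries and at 663 and 585 FPKM in the KO libraries. WT replicate 2 was the highest library and KO replicate 2 the lowest for both genes. The log2 difference of Ahcy (chromosome 2, 155059310 to 155074497) was −0.15 (SE 0.16, limma adjusted p = 0.862) and ran from −0.28 to −0.01 with a library left out. A predicted RefSeq gene, Gm39966, overlaps its locus.

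Betaine-dependent remethylation of homocysteine gave the largest member difference. Bhmt, betaine-homocysteine methyltransferase (chromosome 13, 93616891 to 93637758), stood at 5253 and 5202 FPKM in the WT libraries and at 4314 and 3945 FPKM in the KO libraries. Both KO libraries lay below both WT libraries, and the gap between groups exceeded the gap between replicates. The means were 5228 ± 35.7 against 4129 ± 261 FPKM (SD, n = 2 each), so the KO mean was 1.27-fold lower. The log2 difference was −0.34 (SE 0.18, 95% interval −0.79 to 0.10) and did not pass (limma adjusted p = 0.701). It stayed negative with any library left out, between −0.41 and −0.28. Bhmt ranked as number 15 of all genes by mean level.

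Bhmt2, the neighbouring paralog 18.3 kb away, whose product uses S-methylmethionine as its methyl donor, stood at 157 and 159 FPKM in the WT libraries and at 148 and 134 FPKM in the KO libraries. It too was lower in both KO libraries, by a smaller log2 difference of −0.16 (SE 0.11, 95% interval −0.44 to 0.12, limma adjusted p = 0.778), which ran from −0.23 to −0.09 with a library left out. The level of Bhmt was 33.5 and 32.7 times that of Bhmt2 in WT and 29.1 and 29.3 times in KO. The ratio was thus lower in both KO libraries, a description for which 2 against 2 libraries allow no exact two-sided p below 0.333. Dmgdh, dimethylglycine dehydrogenase, which oxidises the by-product of the Bhmt reaction, begins 134 bases from Bhmt2 on the other strand and stood at 203 and 240 FPKM in the WT libraries and at 236 and 215 FPKM in the KO libraries. It overlapped between groups at a log2 difference of 0.03.

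Bhmt made up most of the summed level of the 9 genes. That sum was 8475 and 8939 FPKM in WT against 7659 and 7289 FPKM in KO, or 1.58% and 1.65% of all FPKM in WT and 1.39% and 1.35% in KO. The share of Bhmt in the sum was 62.0% and 58.2% in WT and 56.3% and 54.1% in KO. Across single genes the picture was less uniform, with KO replicate 2 the lowest library for 5 of the 9 genes and the highest for 2. Fewer cells of a type and less RNA per cell cannot be told apart in these bulk samples.

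The zones of the liver lobule, in which hepatocytes express different enzymes, were followed by marker genes. Of 10 periportal hepatocyte genes 7 were lower in KO without overlap between the groups, against 16.4% of all genes tested. None passed the threshold. The 10 had a median log2 difference of −0.34. At an unadjusted limma p under 0.05 there were 5 of the 10, all lower in KO, against 3.25% of all genes tested. The summed level of the 10 nevertheless overlapped, between 2619 and 2811 FPKM in WT and between 2071 and 2961 FPKM in KO. Pck1 alone had 994 FPKM in KO replicate 2. Cps1, the first enzyme of the urea cycle, stood at 620 and 621 FPKM in the WT libraries and at 362 and 400 FPKM in the KO libraries. Ass1, also of the urea cycle, overlapped, at 159 and 122 FPKM in WT against 142 and 137 FPKM in KO. Sds overlapped too, at 33.8 and 68.9 FPKM in WT against 38.9 and 79.7 FPKM in KO. Of the 10 periportal differences 7 were negative and 3 positive. The 10 pericentral genes summed to between 3427 and 3893 FPKM in WT and between 3963 and 4127 FPKM in KO. Gene by gene they were mixed, with a median log2 difference of 0.01, 4 lower and 2 higher in KO without overlap, against 16.4% and 22.4% of all genes tested. None of the 20 was listed at 0. The part of zonal composition in the values of Bhmt and Shmt1 was not tested.

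Other liver cells were also compared. The 10 macrophage genes summed to 177 and 147 FPKM in WT against 151 and 246 FPKM in KO, and the 10 endothelial genes to 71.2 and 73.9 in WT against 76.4 and 91.7 in KO. The 10 stellate cell genes ran from 84.3 to 92.8 FPKM in WT and from 91.7 to 94.0 in KO. The 6 lymphocyte genes summed to at most 2.95 FPKM in any library. The 6 cholangiocyte genes summed to 25.4 and 23.5 FPKM in WT against 50.3 and 41.7 FPKM in KO, most of it from Spp1, the osteopontin gene, at 21.3 and 20.2 in WT and 45.5 and 37.0 in KO. Apart from Alb, no marker was listed at 0 in all libraries. The part of these cells in the members' values was not tested.

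The transsulfuration pair takes homocysteine out of the cycle. Cbs, cystathionine beta-synthase, which condenses it with serine, stood at 159 and 189 FPKM in the WT libraries and at 168 and 220 FPKM in the KO libraries, summed over 3 transcript rows. The groups overlapped, at a log2 difference of 0.15 (SE 0.17, limma adjusted p = 0.868), and it was −0.04 without KO replicate 2. The largest row, NM_144855, held 60.9% and 57.1% of the gene in the WT libraries and 61.8% and 56.1% in the KO libraries. NM_178224 held 28.7% and 27.7% in WT against 22.4% and 32.8% in KO, and NM_001271353 held 10.5% and 15.2% in WT against 15.8% and 11% in KO. The shares differed between replicates and overlapped between groups for each row. Cth, cystathionine gamma-lyase, which releases cysteine, stood at 174 and 227 FPKM in the WT libraries and at 203 and 169 FPKM in the KO libraries. Its log2 difference was −0.10 (SE 0.17, limma adjusted p = 0.917), with a positive sign when WT replicate 2 (0.09) or KO replicate 2 (0.03) was left out. Neither gene separated the genotypes.

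Shmt1, cytosolic serine hydroxymethyltransferase, interconverts serine and glycine and loads one-carbon units onto folate. It stood at 80.5 and 68.3 FPKM in the WT libraries and at 93.1 and 85.8 FPKM in the KO libraries. Both KO libraries lay above both WT libraries, with means of 74.4 ± 8.60 against 89.5 ± 5.15 FPKM (SD, n = 2 each), so the KO mean was 1.20-fold higher. The log2 difference was 0.27 (SE 0.13, 95% interval −0.05 to 0.58) and did not pass (limma adjusted p = 0.665). It stayed positive with each library left out, between 0.15 and 0.38. Shmt1 was the only member higher in KO without overlap, where 22.4% of all genes tested were so.

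**Figure D2:**
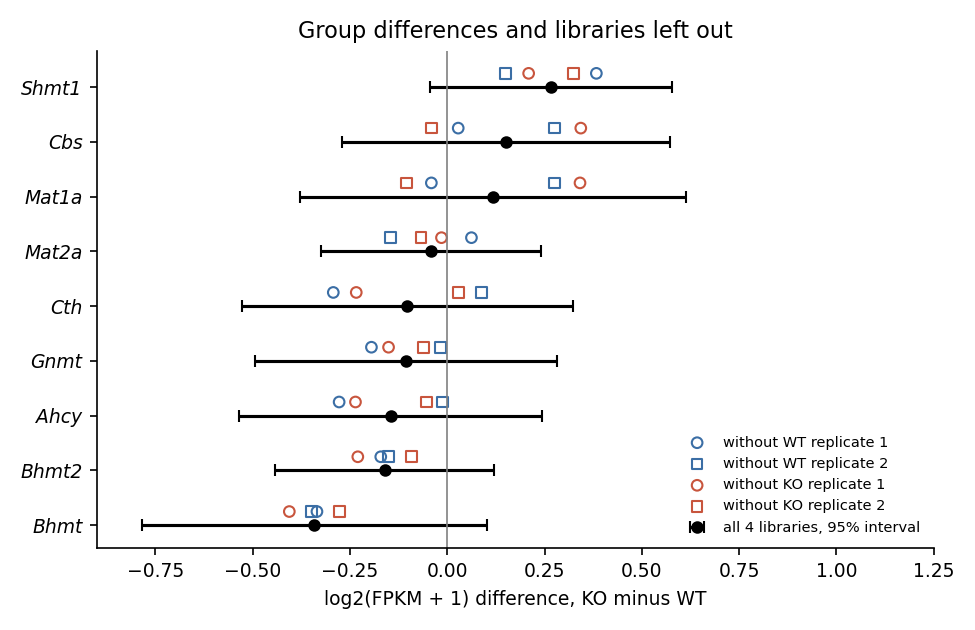
Difference of log2(FPKM + 1), KO minus WT, for the 9 genes. Black points are estimates from all 4 libraries with 95% intervals, and open symbols the estimates without 1 library (blue, a WT library; orange-red, a KO library). Every interval spans 0. Mat1a, Mat2a, Cbs and Cth change sign with a library left out, while Gnmt, Ahcy, Bhmt, Bhmt2 and Shmt1 keep theirs.

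Shmt1 lies on chromosome 11 (60788897 to 60811265), 565 kb from Srebf1, the targeted gene. Pemt, which makes phosphatidylcholine with S-adenosylmethionine and thus draws on the methionine cycle, lies 153 kb to the other side. Pemt stood at 282 and 311 FPKM in the WT libraries and at 326 and 257 FPKM in the KO libraries, overlapping, at a log2 difference of −0.03 (limma adjusted p = 0.975). Within 1 Mb of Srebf1, 32 other genes were tested, of which 1 passed, the non-coding 2610507I01Rik. Their log2 differences had a median of 0.01 and ran from −2.62 to 0.63, with 8 higher and 9 lower in KO without overlap, against 22.4% and 16.4% of all genes tested. At an unadjusted p under 0.05 there were 4 of the 32, against 7.75% of all genes tested. Besides 2610507I01Rik these were Tom1l2, 3 kb from Srebf1, at a log2 difference of −0.54, Dhrs7b at 0.51 and Aldh3a2 at 0.63, with limma adjusted p values of 0.298, 0.406 and 0.403. Tom1l2 stood at 5.34 and 5.09 FPKM in the WT libraries and at 3.10 and 3.48 FPKM in the KO libraries. Shmt1 had rank 5 among the 32 from the highest difference down. An effect of the targeted factor and an effect of the altered locus on its neighbours cannot be told apart for Shmt1 in this design.

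**Figure D3:**
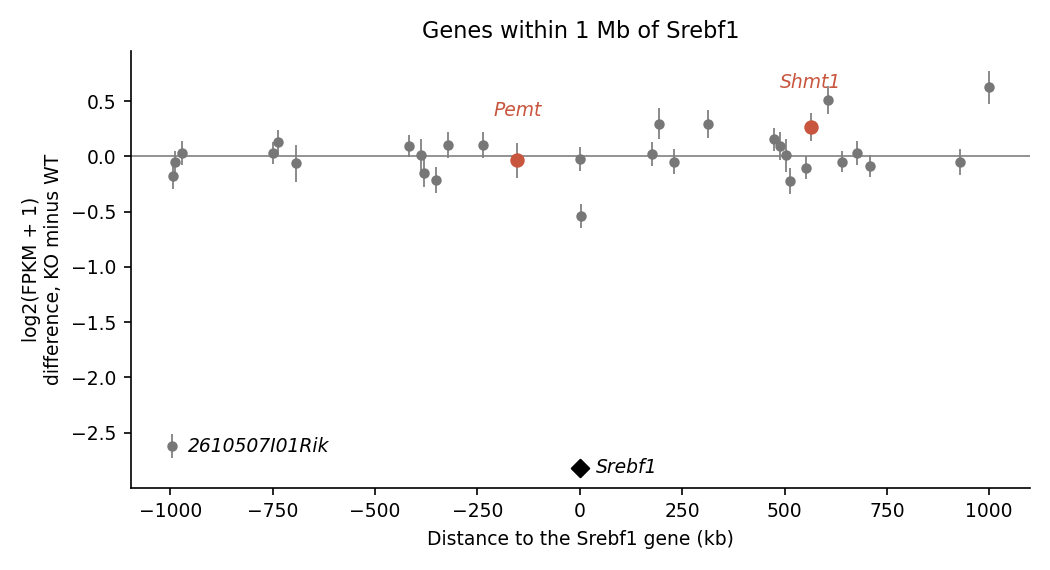
Difference of log2(FPKM + 1), KO minus WT, with its standard error, for the 32 tested genes within 1 Mb of Srebf1, by distance to it in kb. Shmt1 and Pemt are in orange-red and Srebf1 is the black diamond. The lowest neighbour is 2610507I01Rik at −2.62, followed by Tom1l2 at −0.54, and the highest are Aldh3a2 at 0.63 and Dhrs7b at 0.51, while Shmt1 is at 0.27 and Pemt at −0.03.

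The pathways that feed and drain the cycle were described by 6 lists with 70 genes in the table, 64 of them high enough to be tested. None passed the threshold, and the lowest limma adjusted p was 0.15. At an unadjusted p under 0.05 there were 9 of the 64, against 7.75% of all genes tested, with 7 lower and 2 higher in KO against 3.25% and 4.5% of all genes. The median log2 difference was −0.04 over the 64 genes and 0.02 over all genes tested. Of the 64 differences 43 were negative and 21 positive, against 4459 negative and 5361 positive over all genes tested. Without KO replicate 1, 2 genes passed, As3mt and Ethe1, where 3.63% of all genes did, and without KO replicate 2, 2 passed, As3mt and Amd1, where 1.41% did. Those fits take their spread from the WT pair alone.

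Of the folate cycle, which carries one-carbon units and regenerates methionine through methylfolate, 18 of 22 genes were tested (median −0.09, 12 negative). Mthfd2, a mitochondrial folate dehydrogenase, stood at 1.30 and 0.97 FPKM in the WT libraries and at 1.78 and 1.88 FPKM in the KO libraries. Aldh1l1, which burns one-carbon units to carbon dioxide, stood at 374 and 425 FPKM in the WT libraries and at 303 and 307 FPKM in the KO libraries, and Mthfd1, the cytosolic trifunctional enzyme, 60.8 and 61.5 in WT against 49.0 and 52.3 in KO. Mthfd2 was higher, and the more abundant Aldh1l1 and Mthfd1 lower, in both KO libraries. Their limma adjusted p values were 0.514, 0.57 and 0.625. Mtr, the folate-dependent methionine synthase, had about 1 FPKM (1.01 and 1.08 in WT, 0.66 and 0.94 in KO) and was too low to be tested. The level of Bhmt was between 4180 and 6540 times that of Mtr in the 4 libraries.

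Among 9 tested genes of serine and glycine metabolism the median was 0.01, with 4 negative and 5 positive. Of the 4 glycine cleavage genes, Dld, which encodes the shared lipoamide dehydrogenase, and Gldc, the decarboxylase, were lower in both KO libraries, while Amt and Gcsh differed by −0.03 and 0.10 on the log2 scale. Dld stood at 68.1 and 65.7 FPKM in the WT libraries and at 53.8 and 53.8 FPKM in the KO libraries (limma adjusted p = 0.57), and Gldc 85.1 and 91.1 in WT against 72.2 and 74.6 in KO (0.644). Sdsl, a serine dehydratase-like gene, stood at 10.3 and 11.6 FPKM in the WT libraries and at 8.62 and 9.71 FPKM in the KO libraries. Psph, the last step of serine synthesis, stood at 4.94 and 4.42 FPKM in the WT libraries and at 5.70 and 5.26 FPKM in the KO libraries. Psat1, the step before it, was too low to be tested, at 0.70 and 0.40 FPKM in WT against 1.24 and 1.33 FPKM in KO. In betaine and sarcosine oxidation 4 of 5 differences were negative and none reached an unadjusted p of 0.05. Chdh, which makes the betaine that Bhmt uses, stood at 33.4 and 33.0 FPKM in the WT libraries and at 31.3 and 29.4 FPKM in the KO libraries. Pipox, Sardh and Aldh7a1 differed by −0.11, −0.03 and −0.03 on the log2 scale.

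The methyltransferases that spend S-adenosylmethionine, with partners of the cycle enzymes, had 12 tested genes, a median of −0.11 and 6 genes lower in both KO libraries (16.4% of all genes tested). As3mt, arsenite methyltransferase, stood at 29.3 and 25.9 FPKM in the WT libraries and at 15.8 and 15.5 FPKM in the KO libraries, so the KO mean was 1.76-fold lower. Its log2 difference of −0.78 (SE 0.11, limma adjusted p = 0.15) was the largest in the list, and its limma adjusted p was 0.015 without KO replicate 1, 0.032 without KO replicate 2, 0.999 without WT replicate 1 and 0.83 without WT replicate 2. As3mt lies 34.2 kb from Cyp17a1 on chromosome 19. Cyp17a1, the steroid 17α-hydroxylase gene, was 1 of the 7 genes that passed over all genes, with 3.59 and 3.15 FPKM in WT against 0.47 and 0.68 FPKM in KO. Inmt, indolethylamine N-methyltransferase, stood at 201 and 164 FPKM in the WT libraries and at 129 and 132 FPKM in the KO libraries (limma adjusted p = 0.49). Hnmt, histamine N-methyltransferase, stood at 13.1 and 14.1 FPKM in the WT libraries and at 9.50 and 10.7 FPKM in the KO libraries (0.476).

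Ahcyl2, a relative of Ahcy, stood at 7.73 and 6.29 FPKM in the WT libraries and at 5.65 and 4.93 FPKM in the KO libraries, summed over 3 rows. Its leading row differed by −1.03 and the sum by −0.35, so the value depends on which rows are used. In methionine salvage and polyamine synthesis (9 tested, median −0.005) and in cysteine, taurine and sulfide metabolism (11 tested, median −0.05) no gene had an unadjusted p under 0.05. The latter list had 10 negative differences of 11, where 4459 of all 9820 genes tested were negative. Its differences were small apart from that of Ethe1, a mitochondrial sulfur dioxygenase. Ethe1 stood at 59.9 and 55.4 FPKM in the WT libraries and at 63.0 and 33.4 FPKM in the KO libraries, and KO replicate 2 alone was low. Without KO replicate 1 it passed at −0.77, and without KO replicate 2 its difference was 0.13. Mtap, Srm, Sms, Mpst, Csad and Gclc, the other genes with the smallest p of these lists, differed by −0.16, 0.15, −0.10, −0.16, −0.14 and −0.10.

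**Figure D4:**
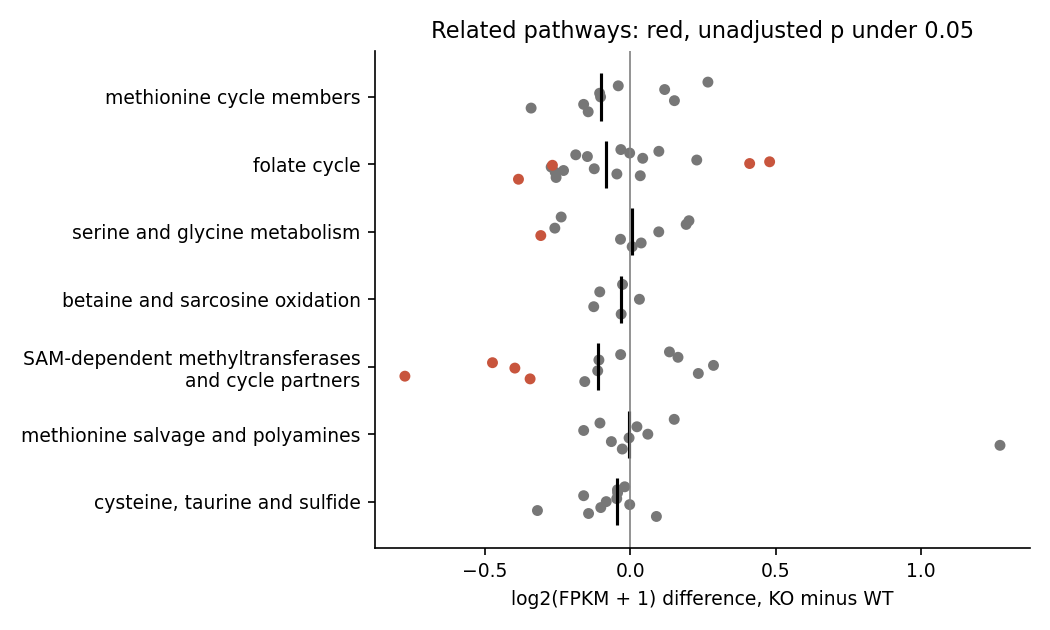
Difference of log2(FPKM + 1), KO minus WT, for each tested gene of the methionine cycle and of the 6 related lists. Each point is 1 gene, black bars are list medians, and orange-red marks an unadjusted p under 0.05. Most genes lie within a narrow band around 0, As3mt is the lowest point at −0.78, and the point at 1.27 is Amd1, which was high in KO replicate 1 alone.

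Patterns over the 4 libraries were set side by side by the root mean square difference of centred log2 values, among 73 genes of the members and lists. Mat1a and Cbs were each other's nearest gene (0.04 log2 units), both higher in the replicate 2 libraries. The nearest pattern to Bhmt was that of Dld (0.05), to Bhmt2 that of Chdh (0.03), and to Shmt1 that of Psph (0.05). Gnmt was nearest to Pipox (0.03), Ahcy to the folate carrier gene Slc19a1 (0.02), Cth to Ahcy (0.05) and Mat2a to the salvage gene Enoph1 (0.02). With 4 libraries such likeness is a description only.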

How the data were processed

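Liver RNA-seq of 2 WT and 2 KO libraries was analysed. The authors deposited 1 table of FPKM per RefSeq transcript, per the file headers. Bowtie, TopHat and mm10 are named in the submitters' processing notes. Which program computed FPKM, on which annotation release and whether by strand is not given in the sources used here. In all, 33170 rows were summed to 23920 genes, of which 23847 matched RefSeq by gene number for coordinates. Steps of low values implied 22.8 and 20.8 M fragments in WT and 22.9 and 20.8 M in KO. A whole fragment count (within 0.1) fitted 46.6% to 48.9% of low values, so no count test was run.

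The test was that of limma 3.58.1 (R 4.3.3) on log2(FPKM + 1), with an intensity trend and Benjamini-Hochberg adjustment over all genes whose mean reached 1 FPKM. The fit was checked on simulated data with known changes, drawn from limma's own prior with independent normal errors. That check does not cover a library that stands apart, such as KO replicate 2. Log2 differences are on the log2(FPKM + 1) scale, which understates changes of low genes. The members and lists were chosen with earlier results of these data known. Named genes were the members, Srebf1, the 4 smallest p in each of the 6 lists, nearest patterns and list genes within 1 Mb of Srebf1. The values of 1 gene that this rule names are not reported here. Mtr, Psat1, Dmgdh, Amt, Gcsh, Cps1, Pck1, Spp1, Tom1l2, Dhrs7b, Aldh3a2, 2610507I01Rik and Cyp17a1 were named after their values were seen. So were Ass1 and Sds. Tables were made with pandas 2.3.3 and numpy 2.4.6 in python 3.11.15, and figures with matplotlib 3.10.9.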

Additional observations from a re-analysis of the deposited data

How the results depend on the processing

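In 15 alternatives to the main analysis no member passed the threshold. Among the alternatives with all 4 libraries, 1 of the 9 members had an unadjusted limma p under 0.05 without the intensity trend. With the replicate block 1 of the 9 had. Of 135 comparisons of a member with its main value, 129 kept direction and side of the threshold. Many of these could not change direction, because the filters, trend, prior, block and threshold do not alter the log2 difference. The 6 comparisons that turned in sign all had a library left out. With a library left out the ranges were −0.105 to 0.341 for Mat1a, −0.146 to 0.062 for Mat2a, −0.04 to 0.343 for Cbs and −0.293 to 0.088 for Cth. Among other named genes the ranges with a library left out that crossed 0 were −0.086 to 0.022 for Aldh7a1, −0.093 to 0.039 for Sardh, −0.213 to 0.003 for Sms, −0.767 to 0.127 for Ethe1, −0.307 to 0.019 for Csad, −0.309 to 0.106 for Gclc, −0.206 to 0.139 for Pemt and −0.11 to 0.101 for Enoph1. The cause was not tested. The count of 7 genes passed over all genes became 11 with a pseudocount of 0.1, 3 with a minimum of 5 FPKM, 4 with quantile normalisation, 15 with a robust prior and 4 with the highest row of each gene. It was 0 without a filter, where 1233 genes had an unadjusted limma p under 0.05, and from 1 to 357 with a library left out. Pathway genes passed in 0 to 2 cases with a library left out. Srebf1 lost the call without a filter (adjusted p = 0.104) and without WT replicate 1 (0.114) or WT replicate 2 (0.0898), at log2 differences between −2.88 and −2.755. With the replicate number as a block 19 genes passed, none of them members. The shared numbers are not said to mark pairs, and replicate deviations correlated at 0.168 between groups across genes, with only 2 pairs. With 2 libraries a group, the 95% intervals of Bhmt and Shmt1 included 0.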

Other observations

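Amd1, which encodes S-adenosylmethionine decarboxylase, the entry of the methyl donor into polyamine synthesis, was listed at 0.015, 0.017 and 0.017 FPKM in WT replicate 1, WT replicate 2 and KO replicate 2, and at 4.92 FPKM in KO replicate 1. It has a single row in the table. Without KO replicate 2 it passed in limma (log2 difference 2.54, adjusted p = 1.95e-05), so that call rests on KO replicate 1 alone. Its value is uncertain.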
